A study of Mus musculus with 16 samples.

Results

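Messenger RNA of 9 chemokine receptors was measured by RNA sequencing in subcapsular sinus macrophages (SSMs) and medullary sinus macrophages (MSMs) sorted from mouse lymph nodes. The receptors were Ccr1, Ccr2, Ccr8, Cx3cr1, Cxcr3, Cxcr4, Cxcr5, Cxcr6 and Ackr3, chosen by symbol through the Ensembl identifiers of the count table, and all 9 were found among its 55421 gene rows. Every group came from C57B/6 male mice that carried an intradermal flank tumor of MOC2, a mouse squamous cell carcinoma line, for 2 weeks after 500000 cells were implanted. No group came from mice without a tumor. The age of the mice is not given in the labels.

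Tumor-draining lymph nodes (tdLN) and non-draining lymph nodes (ndLN) were taken from 2 mice per pool, 2 tdLN or 6 contralateral ndLN. The ndLN were inguinal, axillary and brachial nodes, whereas the tumor lay near the inguinal node, so the effect of tumor drainage and that of node position cannot be told apart. Both subsets were sorted as live CD45+ CD3- B220- Ly6G- CD11b+ CD169+ events, SSMs as CD11c- with low side scatter and MSMs as CD11c+ with high side scatter. There were 2 libraries in each of the 4 groups, each of about 10000 cells, and each was sequenced on 2 lanes that are summed here. The libraries held between 42972328 and 48130352 counts on genes, so that 3 counts, taken as the floor of detection, lie between 0.0623 and 0.0698 CPM, counts scaled to the size of the library. Siglec1, which encodes CD169, was at 15.1 and 8.47 normalized CPM in SSMs from ndLN, at 70.0 and 59.2 in SSMs from tdLN, at 0.795 and 1.63 in MSMs from ndLN and at 5.96 and 5.64 in MSMs from tdLN. The marker of the gate was therefore detected in every library, at its lowest in MSMs from ndLN.

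Chemokine receptors are G protein-coupled receptors that steer migrating leukocytes along gradients of small secreted proteins, the chemokines. In lymph nodes they help to place B cells in follicles, T cells in the paracortex and innate-like lymphocytes and macrophages near the sinuses. Many of the receptors studied here are known from particular leukocytes: Ccr2 from inflammatory monocytes, Cxcr5 from B cells and follicular helper T cells, Cxcr6 from tissue-resident T and natural killer (NK) cells. Ackr3 is an atypical receptor that scavenges its ligand in place of signaling through G proteins.

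Levels below are CPM scaled between libraries by edgeR's TMM method, and the libraries of a group are given in the order of pool 1 and pool 2. A gene is said to have passed both cut-offs, or to be higher or lower, at an adjusted p-value under 0.01 in edgeR's quasi-likelihood test together with a normalized count that averaged over 100 in a lane. In ndLN, 6 of the 9 receptors were higher in SSMs than in MSMs and 0 were lower, where 12.1% of the 21085 genes tested passed both cut-offs, 6.01% as higher and 6.06% as lower. In tdLN, 6 receptors were higher in SSMs and 1 was lower, where 8.69% of genes passed. Between tdLN and ndLN, 1 receptor was higher and 3 were lower in SSMs from tdLN, where 3.04% of genes passed. Only genes above the mean count could pass, which were 9988 of the 21085 and 8 of the 9 receptors. Of these 9988 genes, 2545 passed in ndLN, 1832 in tdLN and 640 between the nodes in SSMs. In MSMs the count was 0 of 9 between the nodes, where 0.0237% of genes, 5 in number, passed, although 2517 genes had an unadjusted p under 0.05, 5 of the receptors among them, and DESeq2 called 2 receptors. The interaction of subset and node passed both cut-offs for 0 of the 9 receptors and for 0.0379% of genes, 8 in number, with 2600 genes and 7 of the receptors at an unadjusted p under 0.05, and 3 receptors called by DESeq2.

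The receptors fell into several patterns. Ccr1, Ccr2 and Cx3cr1 were higher in SSMs of both node types, and Ccr2 rose further in tdLN. Cxcr6 and Ccr8 were also higher in SSMs of both node types, but were lower in SSMs from tdLN than in those from ndLN. Cxcr5 was higher in SSMs in ndLN, and its levels in SSMs and MSMs overlapped in tdLN. Cxcr3 was the 1 receptor that was lower in SSMs than in MSMs, in tdLN. The libraries of the groups compared did not overlap for 8 receptors between the subsets in ndLN and for 7 in tdLN, where 57.2% and 56.6% of all genes did not overlap, and 72.5% and 72.2% of those above the mean count, as 8 of the 9 receptors were. For tdLN against ndLN they did not overlap for 9 receptors in SSMs and for 6 in MSMs, where the share was 51.9% and 38.5% of all genes and 67.6% and 49.8% of those above the mean count.

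**Figure D1:**
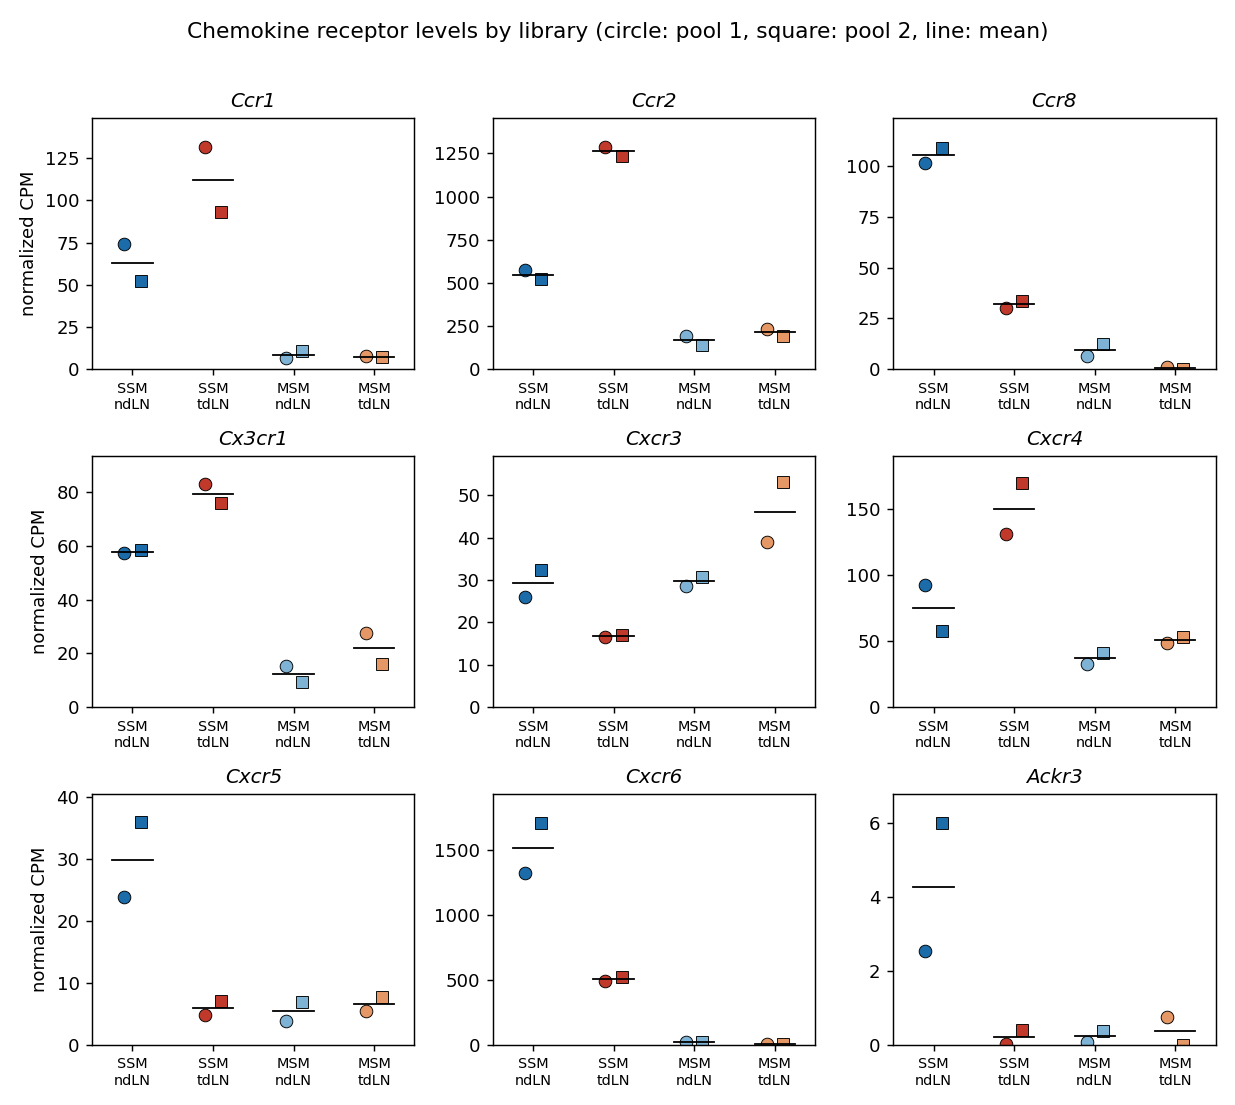
Normalized CPM of each of the 9 receptors (vertical axis, linear and starting at 0, with its own scale in each panel) in the 4 groups, with a circle for pool 1, a square for pool 2 and a line at the mean. Cxcr6 reached 1703 in SSMs from ndLN and at most 20.8 in MSMs, while Cxcr3 was highest in MSMs from tdLN, at 39.0 and 53.1.

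Per kilobase of exon, Cxcr6 had the highest level of the 9 in SSMs of both node types. It encodes the receptor for the transmembrane chemokine Cxcl16 (chr9:123806475-123811760, plus strand, mm10). It lies within Fyco1, a gene on the other strand, without sharing an exon with it. Cxcr6 was at 1324 and 1703 CPM in SSMs from ndLN and at 489.6 and 519.5 in SSMs from tdLN. In MSMs it was at 17.9 and 20.8 in ndLN and at 4.41 and 2.62 in tdLN. Every SSM library was thus above every MSM library, and within each subset both ndLN libraries were above both tdLN libraries.

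Between subsets, the log2 fold change of Cxcr6, SSMs over MSMs, was 6.28 in ndLN (standard error, SE, 0.227; adjusted p = 1.44e-05) and 7.17 in tdLN (0.255, 2.3e-05). In SSMs from tdLN it was 3.00-fold lower than in SSMs from ndLN, a log2 fold change of -1.58 (0.18, 0.00298). In MSMs the same comparison gave -2.47 (0.255), with an adjusted p of 0.0183 that missed the threshold. The log2 fold changes of the subsets differed by 0.89, with an adjusted p of 0.294 for the interaction of subset and node. Fyco1 was between 18.4 and 29.8 CPM in every library and passed the cut-offs in none of the 4 comparisons. The genes whose levels followed Cxcr6 most closely over the 8 libraries were Il2rb, which encodes a receptor chain for interleukins 2 and 15 (Pearson r = 0.999), Txk, a kinase of the Tec family (r = 0.998), and Pim2, a serine/threonine kinase (r = 0.998). These correlations describe 4 groups of 2 libraries, so that r follows mainly the differences between groups, and they were taken over 9980 genes above the mean count.

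Ccr8, the receptor for Ccl1 and a gene of type 2 and regulatory T cells and of innate lymphoid cells, shared this pattern (chr9:120092114-120094906, plus strand). It was at 101.3 and 108.9 CPM in SSMs from ndLN and at 30.1 and 33.6 in SSMs from tdLN. Among MSMs it was at 6.31 and 12.2 in ndLN and at 0.994 and 0.176 in tdLN. As with Cxcr6, the 4 groups did not overlap. Between SSMs and MSMs the log2 fold change was 3.52 in ndLN (SE 0.308, adjusted p = 0.000215) and 5.81 in tdLN (0.479, 0.000257). Ccr8 was 3.30-fold lower in SSMs from tdLN, at -1.72 (0.272), and its adjusted p of 0.0098 lay next to the threshold. In MSMs its log2 fold change was -4.02 (0.55), with an adjusted p of 0.0346. The MSM libraries from tdLN held 41 and 8 counts of Ccr8. Without pool 1 or pool 2 of these, the value between subsets in tdLN was 7.64 or 4.84, both still called, and that between nodes in MSMs was -5.83 or -3.03. Over the 8 libraries the correlation of Ccr8 with Cxcr6 was 0.969. The closest other genes were Qpct, which encodes glutaminyl cyclase (r = 0.996), S1pr1, the receptor by which lymphocytes leave lymph nodes (r = 0.995), and Sult2b1, a sulfotransferase (r = 0.995).

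Markers of other cell types moved with both genes, though not all of them. For 12 innate-like T and lymphoid cell markers, the summed level was between 1838 and 2317 CPM in SSMs from ndLN, 731.9 and 820.4 in SSMs from tdLN, 60.2 and 87.1 in MSMs from ndLN and 33.7 and 38.2 in MSMs from tdLN. All 12 were higher in SSMs in ndLN, 11 were higher in tdLN, and Il7r, Il23r, Gata3 and Rora were lower in SSMs from tdLN than from ndLN. Among the 12, Gata3 was at 132.6 and 162.6 CPM in SSMs from ndLN and 47.1 and 59.7 in SSMs from tdLN. All 12, and the 11 T cell and 10 NK and cytotoxic cell markers below, were above the mean count. Of the 9988 such genes, 2545 passed in ndLN, 1832 in tdLN and 640 between the nodes in SSMs. The 11 T cell markers summed to between 2308 and 2535 in SSMs from ndLN, 1018 and 1170 in SSMs from tdLN, 678.5 and 823.7 in MSMs from ndLN and 492.4 and 533.8 in MSMs from tdLN. Most of the MSM sums was Cd8a, a gene of T cells and some dendritic cells, at 605.1 and 386.5 in ndLN and 356.6 and 438.7 in tdLN, which was lower in SSMs of both node types, against the other T cell markers called. Cd3e, an invariant chain of the T cell receptor complex that the gate was set to exclude, was at 150.8 and 143.1 in SSMs from ndLN and at 75.0 and 84.3 in SSMs from tdLN. The 10 NK and cytotoxic cell markers summed to between 2865 and 3564 in SSMs from ndLN and 2181 and 3149 in SSMs from tdLN, against 297.3 to 327.4 in MSMs from ndLN and 217.6 to 252.2 in MSMs from tdLN, and 0 of the 10 passed the cut-offs in edgeR between tdLN and ndLN in SSMs, with 2 at an unadjusted p under 0.05. The 12 basophil and mast cell markers summed to between 2200 and 3242 in SSMs from ndLN and 419.9 and 868.8 in SSMs from tdLN, against 672.2 to 691.9 in MSMs from ndLN and 311.8 to 409.4 in MSMs from tdLN. Most of the MSM sums was Kit, the stem cell factor receptor, at 606.0 and 614.5 in ndLN and 374.1 and 269.2 in tdLN. Mcpt8, a basophil protease, was higher in SSMs from tdLN, at 20.5 and 23.8, than in SSMs from ndLN, at 1.60 and 3.92, while the sum of the list was lower. Their part in the levels of Cxcr6 and Ccr8 was not tested. In bulk samples, fewer cells of a type and less RNA per cell cannot be told apart.

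The promoter sequences of Cxcr6 and Ccr8, whose transcripts moved together, are given from RefSeq's GRCm38.p6 table, which held 8 of the 9 receptors. The windows run up to the base before the first annotated start of transcription, 5′ to 3′ on the strand of the gene. Capitals mark the letters of a RUNX motif, TGTGGT, in Cxcr6 and of a GATA motif, AGATAA, in Ccr8, both on the opposite strand, so that the printed strand reads ACCACA and TTATCT, at chr9:123806227-123806474 and chr9:120091883-120092113.
Cxcr6: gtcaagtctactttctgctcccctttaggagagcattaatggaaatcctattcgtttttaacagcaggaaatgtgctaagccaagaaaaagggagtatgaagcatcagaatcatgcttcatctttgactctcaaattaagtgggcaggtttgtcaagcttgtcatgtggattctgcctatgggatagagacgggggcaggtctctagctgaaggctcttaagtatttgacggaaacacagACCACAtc
Ccr8: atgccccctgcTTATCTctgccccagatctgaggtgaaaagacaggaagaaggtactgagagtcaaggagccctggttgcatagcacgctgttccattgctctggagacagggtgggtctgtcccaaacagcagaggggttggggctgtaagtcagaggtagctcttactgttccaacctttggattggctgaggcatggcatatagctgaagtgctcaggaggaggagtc
The motifs were chosen with the values known. Within 250 bases before the annotated start and on either strand, TGTGGT was found in 14.0% of 32851 promoters and in 5 of the 8 receptors, namely Ccr1, Cx3cr1, Cxcr3, Cxcr6 and Ackr3. AGATAA was found in 9.99% of promoters and in 2 of the 8, Ccr2 and Ccr8. A match of letters describes the sequence and is not a binding site.

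Among the receptors known from monocytes, Ccr1, Ccr2 and Cx3cr1, Ccr2 had the highest level per kilobase of exon in every group. It binds Ccl2, Ccl7 and Ccl12 and is needed for monocytes to leave the bone marrow (chr9:124101950-124113557, plus strand). Ccr2 was at 577.2 and 519.6 CPM in SSMs from ndLN and at 1289 and 1233 in SSMs from tdLN. Its level in MSMs was 191.8 and 140.8 in ndLN and 233.1 and 195.0 in tdLN. The SSM libraries were above all MSM libraries, and those from tdLN stood apart from those from ndLN. SSMs exceeded MSMs by a log2 fold change of 1.73 in ndLN (SE 0.131, adjusted p = 0.00011) and 2.57 in tdLN (0.135, 6.3e-05).

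Ccr2 was 2.30-fold higher in SSMs from tdLN than in SSMs from ndLN, a log2 fold change of 1.21 (0.128, 0.00259), and was the 1 receptor that rose there. In MSMs the value was 0.37 (0.129), with an adjusted p of 0.315, and the interaction of 0.83 had an adjusted p of 0.0951. Of the 50-base windows in the Ccr2 transcripts, 1.91% also occurred in other genes. The genes most like Ccr2 were Gsr, which encodes glutathione reductase (r = 0.993), Ly6i (r = 0.991) and Ms4a4a (r = 0.991). The 9 monocyte markers summed to between 1215 and 2479 CPM in SSMs from ndLN and 3807 and 4007 in SSMs from tdLN, against 446.5 to 504.7 in MSMs from ndLN and 370.5 to 404.1 in MSMs from tdLN, and 0 of the 9 passed the cut-offs in edgeR between tdLN and ndLN in SSMs, with 6 at an unadjusted p under 0.05. All 9 were above the mean count, where 640 of 9988 genes passed in that comparison. Ly6c2, which marks inflammatory monocytes, was at 582.0 and 171.7 in SSMs from ndLN and at 1023 and 1063 in SSMs from tdLN. Spn, another of the 9, went the other way, from 78.4 and 60.4 in SSMs from ndLN to 39.2 and 44.1 in those from tdLN. The means of Ace and Fn1 in SSMs were also lower in tdLN, at 76.6 against 84.4 and 63.0 against 72.6. The part of monocytes in the level of Ccr2 was not tested.

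Ccr1, a receptor for Ccl3, Ccl5 and other inflammatory chemokines (chr9:123962124-123968692, minus strand), was at 74.0 and 52.4 CPM in SSMs from ndLN and at 131.5 and 92.9 in SSMs from tdLN. MSMs had 6.56 and 10.5 in ndLN and 7.97 and 6.98 in tdLN. The subsets did not overlap in either node type. SSMs exceeded MSMs by 2.84 on the log2 scale in ndLN (SE 0.291, adjusted p = 0.000432) and 3.90 in tdLN (0.298, 0.000195). Between tdLN and ndLN the log2 fold change was 0.83 in SSMs (0.247), where both pools were higher in tdLN by 0.82 but the adjusted p was 0.0836, and -0.23 in MSMs, where the pools differed in sign. Without MSMs from ndLN pool 2, the value between subsets in ndLN was 3.46, and that between nodes in MSMs was 0.40. The genes most like Ccr1 were Ninj1 (r = 0.996), Ing2 (r = 0.994) and Gbp7, an interferon-induced GTPase (r = 0.994).

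Cx3cr1, the receptor for Cx3cl1 and a gene of patrolling monocytes and many resident macrophages (chr9:119901616-120069879, minus strand), was at 57.3 and 58.3 CPM in SSMs from ndLN and at 82.9 and 75.8 in SSMs from tdLN. In MSMs it was at 15.1 and 9.27 in ndLN and at 27.7 and 15.9 in tdLN. SSMs were above MSMs in each library of both node types, by a log2 fold change of 2.28 in ndLN (SE 0.253, adjusted p = 0.000624) and 1.90 in tdLN (0.24, 0.00158). In both subsets and both pools the level was higher in tdLN, by 0.45 in SSMs (adjusted p = 0.285) and 0.83 in MSMs (adjusted p = 0.271), and neither passed the threshold. Exons of Cx3cr1 are shared with the antisense gene Gm33858, and the strand setting of the counting is not given in the sources used here, so their reads cannot be told apart. Gm33858 was between 0.0891 and 1.21 CPM in every library. The call in ndLN was lost without MSMs from ndLN pool 2, at a log2 fold change of 2.08 and an adjusted p of 0.0128. The call in tdLN was lost without either SSM library from tdLN, with an adjusted p of 0.0154 without pool 1 and 0.0244 without pool 2, and without MSMs from tdLN pool 2, with 0.0246. Bcl3 (r = 0.996), Arhgef10l (r = 0.991) and the glycolytic enzyme gene Eno1 (r = 0.990) were most like it.

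The promoter of Ccr1 held the same RUNX letters as that of Cxcr6, 53 bases before the start, and is shown from chr9:123968693-123968942 on the minus strand with these letters in capitals.
Ccr1: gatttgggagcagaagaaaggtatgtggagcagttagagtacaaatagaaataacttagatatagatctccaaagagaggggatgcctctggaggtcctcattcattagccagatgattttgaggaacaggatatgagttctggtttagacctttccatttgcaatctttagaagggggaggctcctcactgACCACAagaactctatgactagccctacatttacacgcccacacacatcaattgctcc

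Cxcr5, the receptor for Cxcl13 by which B cells and follicular helper T cells enter follicles (chr9:44511787-44561877, minus strand), was at 23.9 and 36.0 CPM in SSMs from ndLN. It was at 4.84 and 7.11 in SSMs from tdLN, at 3.90 and 6.95 in MSMs from ndLN and at 5.45 and 7.73 in MSMs from tdLN. The SSMs from ndLN thus stood above the other 3 groups, which overlapped. Between the subsets it differed by 2.47 on the log2 scale in ndLN (SE 0.219, adjusted p = 0.000227) and -0.14 in tdLN (0.246, 0.776). In SSMs from tdLN Cxcr5 was 5.01-fold lower than in SSMs from ndLN, at -2.32 (0.214, 0.00196), and in MSMs the difference was 0.29 (0.251, 0.703). The interaction was -2.61 (0.331), with an adjusted p of 0.0209, the smallest of the 9 receptors, which missed the threshold of 0.01.

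Cxcr5 shares exons with Bcl9l on the opposite strand, and 1.86% of its 50-base windows also occurred in other genes. Bcl9l was at 11.4 and 10.4 CPM in SSMs from ndLN, 4.39 and 6.58 in SSMs from tdLN, 2.87 and 2.76 in MSMs from ndLN and 1.99 and 3.54 in MSMs from tdLN. Bcl9l too was higher in SSMs in ndLN, with a log2 fold change of 1.97 (adjusted p = 0.00471), and the reads of both genes cannot be told apart without strand. The B cell list was lowest in SSMs from ndLN, where Cxcr5 was highest. Its 10 markers summed to between 233.8 and 248.6 CPM in SSMs from ndLN, 305.9 and 340.6 in SSMs from tdLN, 430.7 and 1568 in MSMs from ndLN and 398.9 and 433.8 in MSMs from tdLN. Of the 11 T cell markers, 3 were lower in SSMs from tdLN than from ndLN, namely Cd4, Cd8b1 and Zap70, and 0 were higher. In tdLN, unlike Cxcr5, 9 of the 11 were higher in SSMs than in MSMs, and Cd8a was lower. All 11 were above the mean count, where 640 of 9988 genes passed between the nodes in SSMs and 1832 between the subsets in tdLN. Cd4, the coreceptor of helper T cells and a gene of some myeloid cells, was at 404.1 and 475.0 CPM in SSMs from ndLN, 91.7 and 59.0 in SSMs from tdLN, 87.8 and 115.5 in MSMs from ndLN and 88.0 and 58.4 in MSMs from tdLN, and it was lower in SSMs from tdLN than from ndLN, at -2.56 (SE 0.282, adjusted p = 0.00265). Icos, a costimulator of follicular helper and other T cells and of innate lymphoid cells, was at 935.1 and 1054 in SSMs from ndLN and at 417.3 and 508.9 in SSMs from tdLN, with an adjusted p of 0.0119 that missed the threshold. In MSMs Icos was at 37.5 and 57.6 in ndLN and at 21.4 and 17.7 in tdLN, below SSMs of both node types. The part of B and T cells in the level of Cxcr5 was not tested. The genes most like Cxcr5 were Baiap2 (r = 0.977), Stk19 (r = 0.975) and Zfand6 (r = 0.962).

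Cxcr3, the receptor for the interferon-induced chemokines Cxcl9 and Cxcl10 on effector T and NK cells (chrX:101731535-101734269, minus strand), was at 26.1 and 32.4 CPM in SSMs from ndLN and at 28.7 and 30.6 in MSMs from ndLN. It was at 16.5 and 17.1 in SSMs from tdLN and at 39.0 and 53.1 in MSMs from tdLN. The subsets overlapped in ndLN and lay apart in tdLN. SSMs differed from MSMs by a log2 fold change of -0.027 in ndLN (SE 0.179, adjusted p = 0.947) and -1.44 in tdLN (0.185, 0.00167). In SSMs from tdLN the level was lower in both pools, by -0.79 (0.186, 0.039), and in MSMs it was higher in both pools, by 0.62 (0.178, 0.233), and neither value passed the threshold. The interaction was -1.42 (0.257), with an adjusted p of 0.0588.

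The call of Cxcr3 in tdLN was lost without any 1 of the 4 tdLN libraries. The adjusted p was 0.0219 and 0.037 without SSM pools 1 and 2 and 0.0114 and 0.0263 without MSM pools 1 and 2, at log2 fold changes between -1.58 and -1.30. Cxcr3 was negatively correlated over the 8 libraries with Ccr2 (r = -0.800) and Ccr1 (r = -0.793). It was most like Arhgap31 (r = 0.971), Plscr1 (r = 0.957) and Itgae, the integrin chain of resident lymphocytes and of cross-presenting dendritic cells (r = 0.954). The 10 dendritic cell markers, Itgae among them, summed to between 2224 and 2585 CPM in MSMs and 358.3 and 472.1 in SSMs, and their part in the level of Cxcr3 was not tested. In the promoter of Cxcr3 the letters of a T-box motif, TCACAC, and of an ETS motif, GGAAGT on the opposite strand, overlapped by 2 bases, and capitals mark both in chrX:101734270-101734397 on the minus strand.
Cxcr3: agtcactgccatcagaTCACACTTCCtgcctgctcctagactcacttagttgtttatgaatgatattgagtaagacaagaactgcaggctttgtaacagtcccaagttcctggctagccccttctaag
TCACAC was found in 12.3% and GGAAGT in 19.7% of the 32851 promoters, and each in 1 of the 8 receptors. The RUNX letters counted above for Cxcr3 lie outside the bases shown, which end at the first of its annotated starts.

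Cxcr4 and Ackr3 share the ligand Cxcl12, which holds leukocytes in bone marrow and stroma. Cxcr4 (chr1:128588199-128592293, minus strand) was at 92.7 and 57.4 CPM in SSMs from ndLN and at 131.1 and 169.6 in SSMs from tdLN. In MSMs it was at 32.9 and 40.8 in ndLN and at 48.9 and 53.3 in tdLN. The subsets did not overlap in either node type, with a log2 fold change of 1.03 in ndLN (SE 0.266, adjusted p = 0.0278) and of 1.56 in tdLN (0.262, 0.00579). In SSMs the level was higher in tdLN in both pools, by 1.00 (0.257), but the adjusted p was 0.0532. The difference was 0.50 in pool 1 and 1.55 in pool 2 on the log2(CPM + 1) scale, and the value ran from 0.55 to 1.51 with 1 library left out. In MSMs the value was 0.47 (adjusted p = 0.539). In ndLN Cxcr4 passed both cut-offs without SSM pool 2, at 1.47 and an adjusted p of 0.00302. In tdLN its call was lost without any 1 library other than the 2 from SSMs in ndLN, with adjusted p-values between 0.0153 and 0.0769. AB124611 (r = 0.992), Zfp36l2 (r = 0.988) and Fundc2 (r = 0.988) were most like it.

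Ackr3 (chr1:90203980-90216751, plus strand) was near the floor of detection outside SSMs from ndLN. It had 138 and 297 counts in SSMs from ndLN, 1 and 17 in SSMs from tdLN, 3 and 17 in MSMs from ndLN and 31 and 0 in MSMs from tdLN. Both SSM libraries from ndLN, at 2.54 and 6.00 CPM, were above the other 6, the highest of which was at 0.751. Its mean count of 28.7 was below the cut-off of 100. The log2 fold change between subsets in ndLN was 4.16 (SE 0.893, adjusted p = 0.00774), and that between tdLN and ndLN in SSMs was -4.35 (0.908, 0.017). With 1 library left out, these values ran from 3.33, without SSMs from ndLN pool 2, to 5.23, without MSMs from ndLN pool 2, and from -6.91, without SSMs from tdLN pool 2, to -3.55, without SSMs from ndLN pool 2. In tdLN and in MSMs, the fitted value of Ackr3 changed sign with the library left out, so no direction is given. Over the libraries it correlated with Cxcr5 (r = 0.933), and Prickle1 (r = 0.975), Fyco1 (r = 0.973) and Oxnad1 (r = 0.969) were most like it.

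**Figure D2:**
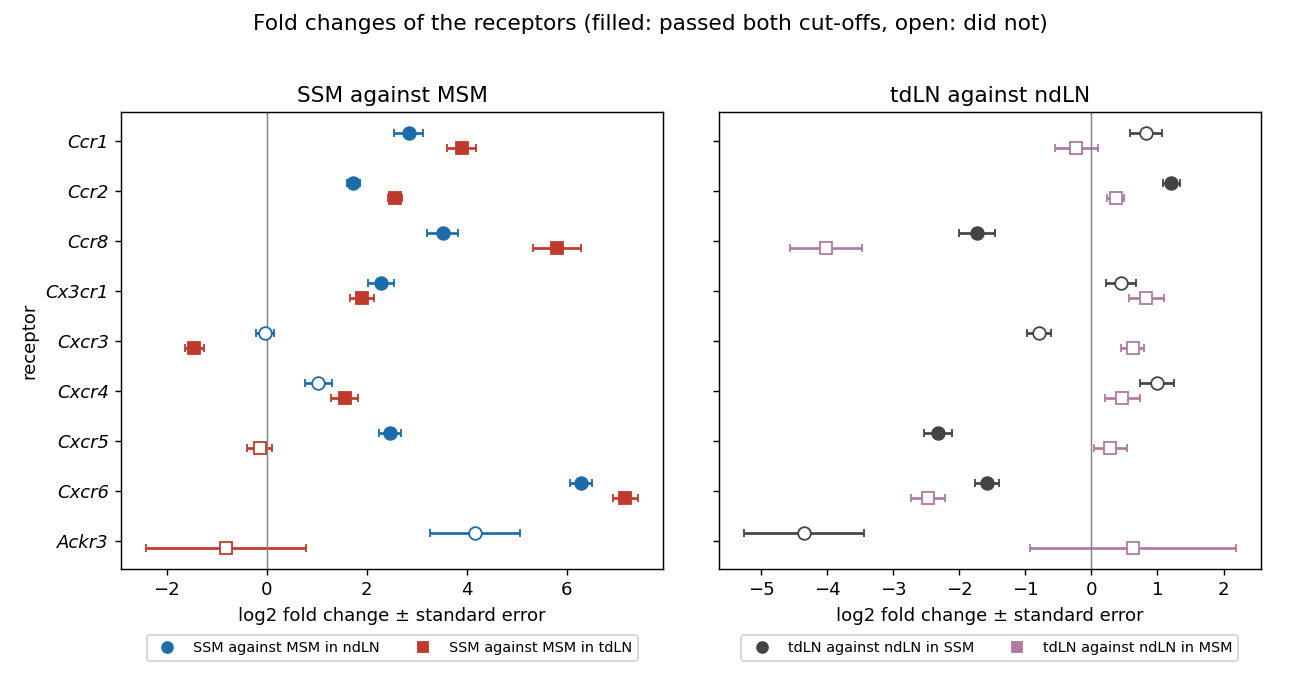
Log2 fold change with its standard error (horizontal axis) for each receptor, between SSMs and MSMs on the left (circles for ndLN, squares for tdLN) and between tdLN and ndLN on the right (circles for SSMs, squares for MSMs), from edgeR. Filled symbols passed both cut-offs, which was the case for 6 and 7 receptors on the left and for 4 and 0 on the right.

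The 4 calls between tdLN and ndLN in SSMs rested on all 4 SSM libraries. Without any 1 of them, 0 of the 9 receptors passed, and over all 8 libraries left out in turn 0 to 2 receptors and 2 to 345 genes passed. Without SSMs from ndLN pool 1 or pool 2, the adjusted p was 0.0152 or 0.0213 for Ccr2, 0.0516 or 0.0534 for Ccr8, 0.0108 or 0.0191 for Cxcr5 and 0.0112 or 0.0289 for Cxcr6. Without SSMs from tdLN pool 1 or pool 2, it was 0.044 or 0.0612 for Ccr2, 0.143 or 0.151 for Ccr8, 0.0426 or 0.0479 for Cxcr5 and 0.075 or 0.0784 for Cxcr6. The log2 fold changes stayed between 1.09 and 1.29 for Ccr2, -1.84 and -1.60 for Ccr8, -2.38 and -2.29 for Cxcr5 and -1.74 and -1.40 for Cxcr6. Ccr8 lost its call without any of the 4 MSM libraries too, with adjusted p-values between 0.0134 and 0.0217. Cxcr6 lost it without MSMs from ndLN pool 1 (0.0147) or pool 2 (0.0143), and Ccr2 without MSMs from tdLN pool 1 (0.011) or pool 2 (0.0107).

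Levels of different receptors were compared per kilobase of exon. In SSMs from ndLN, Cxcr6 led with 784 CPM per kilobase (685.7 to 881.8), followed by Ccr8 with 89.5, Ccr2 with 81.1, Cxcr4 with 41.5, Ccr1 with 22.3, Cxcr3 with 16.9, Cx3cr1 with 12.8, Cxcr5 with 8.99 and Ackr3 with 1.28. Of these neighbours Ccr1 and Cxcr3 overlapped between libraries. In SSMs from tdLN, the order was Cxcr6 with 261, Ccr2 with 187, Cxcr4 with 83.2, Ccr1 with 39.6, Ccr8 with 27.1, Cx3cr1 with 17.6, Cxcr3 with 9.70, Cxcr5 with 1.79 and Ackr3 with 0.0616, and no neighbours overlapped.

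In MSMs the order was another. In ndLN it ran from Ccr2 with 24.6 CPM per kilobase through Cxcr4 with 20.4, Cxcr3 with 17.1, Cxcr6 with 10.0, Ccr8 with 7.86, Ccr1 with 3.02, Cx3cr1 with 2.71 and Cxcr5 with 1.63 to Ackr3 with 0.0681. Overlaps occurred between Ccr2 and Cxcr4, between Cxcr6 and Ccr8, between Ccr1 and Cx3cr1 and between Cx3cr1 and Cxcr5. In tdLN Ccr2 with 31.7, Cxcr4 with 28.3 and Cxcr3 with 26.6 led, each overlapping its neighbour, before Cx3cr1 with 4.83, Ccr1 with 2.64, Cxcr5 with 1.98, Cxcr6 with 1.82, Ccr8 with 0.498 and Ackr3 with 0.112. The neighbours Cxcr5 and Cxcr6 overlapped there, as did Ccr8 and Ackr3.

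Of the summed CPM per kilobase of all detected chemokine receptors, the 9 held 52.8% and 49.3% in SSMs from ndLN and 50.9% and 45.9% in SSMs from tdLN, against 6.82% to 7.65% in the MSM libraries. Cxcr6 alone made up 70.7% and 77.0% of the 9 in SSMs from ndLN, 41.0% and 42.3% in SSMs from tdLN, 10.96% and 11.9% in MSMs from ndLN and 2.33% and 1.37% in MSMs from tdLN. The share of Ccr2 was 8.80% and 6.71% in SSMs from ndLN and 30.9% and 28.7% in SSMs from tdLN. The share of Cxcr3 was between 1.54% and 1.63% in SSMs and between 19.6% and 31.1% in MSMs.

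**Figure D3:**
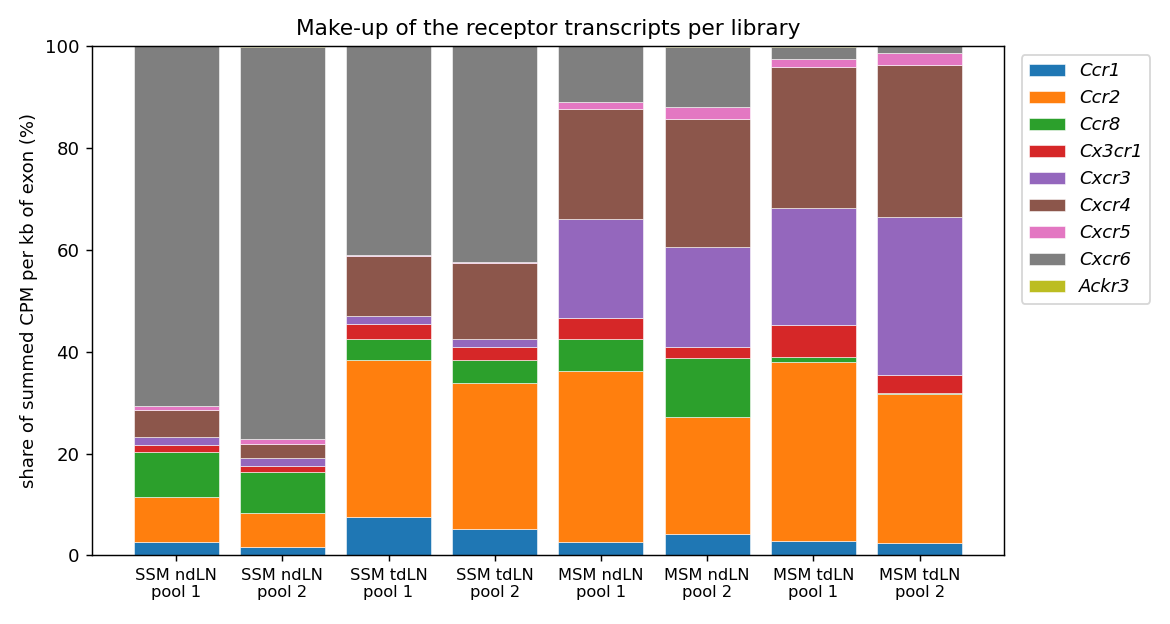
Share of each receptor in the summed CPM per kilobase of exon of the 9 receptors (vertical axis, in %, starting at 0), with 1 stacked bar per library. Cxcr6 fills 70.7% and 77.0% of the bars of SSMs from ndLN, and Ccr2, Cxcr3 and Cxcr4 fill most of those of MSMs.

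The other chemokine receptors give the setting of these values. Of 14 on the list, 12 were tested, and 8 of these were above the mean count. Of the 9988 such genes, 2545 passed in ndLN, 1832 in tdLN and 640 between the nodes in SSMs. In ndLN 4 were higher in SSMs and 2 lower, and the median of the 12 log2 fold changes was 2.63, beside 2.47 over the 9 receptors and 0.091 over all genes. Ccr3, Ccr4 and Ccr6 were among those higher, and those lower were Ccr9 and Xcr1, the receptor of cross-presenting dendritic cells. In tdLN 5 were higher, among them Ccr3, Ccr4, Ccr6 and Ccrl2, and 3 lower, Ccr7, Ccr9 and Xcr1, at a median of 1.46 beside 1.90 for the 9 receptors and 0.024 for all genes. In SSMs from tdLN against ndLN, 1 was higher and 2 were lower, Ccr4 and Ccr6. In MSMs 0 of the 12 passed in edgeR, with 2 at an unadjusted p under 0.05.

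Ccr4, a receptor of type 2 and regulatory T cells, was at 31.2 and 34.1 CPM in SSMs from ndLN and at 10.7 and 10.6 in SSMs from tdLN, a log2 fold change of -1.61 (SE 0.219, adjusted p = 0.00506). Its direction was that of Ccr8.

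Of the 15 ligands of the 9 receptors, 5 were higher and 2 lower in SSMs in ndLN, at a median log2 fold change of 0.56. All 15 were above the mean count. Of the 9988 such genes, 2545 passed in ndLN, 1832 in tdLN and 640 between the nodes in SSMs. Cxcl16, the ligand of Cxcr6, ran opposite to its receptor. It was at 96.8 and 146 CPM in SSMs from ndLN, 257 and 283 in SSMs from tdLN, 808 and 618 in MSMs from ndLN and 621 and 768 in MSMs from tdLN. Between the subsets the change was -2.58 on the log2 scale in ndLN (SE 0.225, adjusted p = 0.000211) and -1.36 in tdLN (0.215, 0.00437). Cxcl9, a ligand of Cxcr3, was at 39.1 and 10.6 in SSMs from ndLN and at 374 and 258 in MSMs from ndLN, a change of -3.75 (0.444, 0.000832).

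Cx3cl1, the ligand of Cx3cr1, was higher in SSMs of both node types, and in SSMs it fell in tdLN. It was at 538 and 851 CPM in SSMs from ndLN, 60.4 and 46.4 in SSMs from tdLN, 24.9 and 27.3 in MSMs from ndLN and 21.8 and 16.5 in MSMs from tdLN. The log2 fold change between tdLN and ndLN in SSMs was -3.70 (SE 0.276, adjusted p = 0.0011). Ccl1, a ligand of Ccr8, was at 31.1 and 20.1 in SSMs from ndLN and at 5.79 and 8.53 in SSMs from tdLN. Both MSM libraries from ndLN had 0 counts of Ccl1, and those from tdLN were at 0.145 and 0. Ccl1 was higher in SSMs of both node types, with adjusted p-values of 0.000114 in ndLN and 0.00159 in tdLN.

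Ccl5, Ccl6 and Ccl7 were the remaining ligands that were higher in SSMs in ndLN. In tdLN those higher were Ccl1, Ccl6, Ccl12, Cx3cl1 and Cxcl10, and Cxcl16 alone was lower. Ccl12, a ligand of Ccr2, was the 1 ligand that rose in SSMs from tdLN, from 5.11 and 2.45 CPM to 19.2 and 16.9, a log2 fold change of 2.28 (0.291, 0.00457). In MSMs 0 of the 15 ligands passed between the nodes in edgeR, with 5 at an unadjusted p under 0.05.

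Of 18 genes of receptor signaling and desensitization, 4 were higher and 2 lower in SSMs in ndLN, and the median log2 fold change was 0.057. All 18 were above the mean count, where 2545 of 9988 genes passed in ndLN and 1832 in tdLN. Grk6, a kinase that phosphorylates active receptors, Rgs16, which speeds the shutdown of G proteins, Dock2, which drives leukocyte motility, and the GTPase Rac2 were higher, and Grk3 and Pik3cg were lower. Grk6, Rgs16 and Rac2 were also higher in tdLN. Rac2 was at 761.8 and 722.1 CPM in SSMs and 154.9 and 184.1 in MSMs of ndLN, which differed by 2.13 on the log2 scale (SE 0.154, adjusted p = 8.85e-05). Between tdLN and ndLN in SSMs 1 of the 18 passed, close to the share of 640 among the 9988 genes above the mean count. It was Arrb2, the arrestin that ends receptor signaling, which rose from 95.3 and 70.1 to 188.7 and 165.2, a change of 1.11 (0.166, 0.0083).

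**Figure D4:**
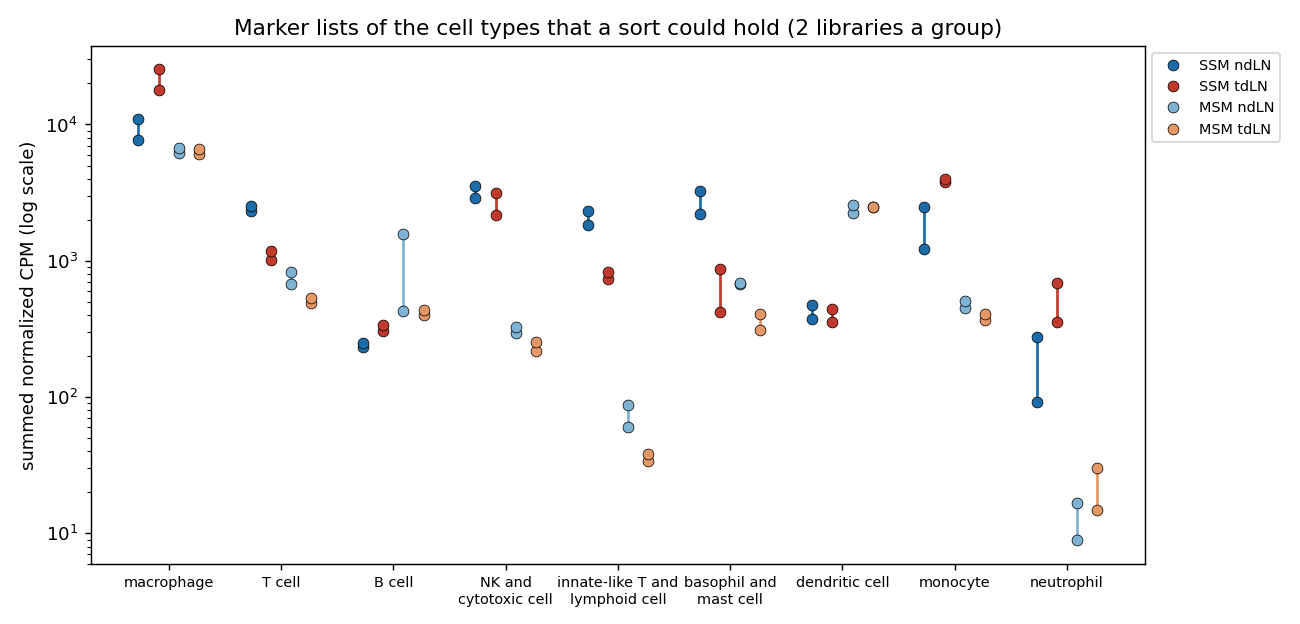
Summed normalized CPM of the marker lists of 9 cell types (vertical axis, log scale) in each library, with the 2 libraries of a group joined by a line. The innate-like T and lymphoid list ran from 1838 to 2317 in SSMs from ndLN and from 33.7 to 38.2 in MSMs from tdLN, and the dendritic cell list was higher in MSMs.

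The remaining marker lists bear on how far the sorted cells were macrophages alone. The 10 macrophage markers summed to between 7680 and 10990 CPM in SSMs from ndLN, 17770 and 25340 in SSMs from tdLN and 6072 and 6705 in MSMs. Most of each sum was Lyz2, at 7940 and 5044 in SSMs from ndLN, 19310 and 12930 in SSMs from tdLN and 3998 to 4636 in MSMs. In ndLN, 4 of the 10 were higher in SSMs than in MSMs and 2 were lower, Mertk and Cd68. In SSMs from tdLN, 6 of the 10 rose, Csf1r, the receptor for the macrophage growth factor, and Siglec1 among them. All 10 were above the mean count, where 2545 of 9988 genes passed between the subsets in ndLN and 640 between the nodes in SSMs. The 10 neutrophil markers summed to between 91.6 and 277.9 in SSMs from ndLN, 354.5 and 690.3 in SSMs from tdLN and 8.90 and 30.1 in MSMs, with Ly6g at or under the floor in SSMs from ndLN and in MSMs. Of the basophil and mast cell markers, Fcer1a, Ms4a2, Mrgprb1 and Tph1 did not exceed the floor in MSMs of both node types, and Mcpt8 and Gata2 in those from tdLN as well.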

How the data were processed

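RNA of sorted macrophages was amplified with the SMART-Seq v4 kit and sequenced on an Illumina HiSeq instrument. Per the labels, bcl2fastq 2.20.0.422, Trimmomatic 0.36 and STAR 2.5.3a were used with GRCm38. The deposited values are whole-number counts of reads per gene in 16 samples, not normalized, and the strand setting and counting mode are not given in the sources used here. Of 55423 rows, 2 are added sequences with 6 counts in all (1.66e-06% of counts), which were left out, and 0 columns were left unused. Symbols and coordinates were taken from GENCODE M21, in which 55154 identifiers were found.

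The 16 samples are 8 libraries on 2 lanes each. Lanes of a library, compared over genes that reached 20 counts in their sum, differed by a chi-square per degree of freedom between 0.955 and 1.02, within sampling noise, against 29.3 to 53.1 between libraries of a group, and were summed. A gene was kept when its counts reached 10 in all and it was detected in 2 or more samples, which left 21085 of 28675 genes with a count.

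Libraries were normalized by TMM and fitted in edgeR 4.0.16 (R 4.3.3) with terms for group and pool. Each contrast was put to the quasi-likelihood test with Benjamini-Hochberg adjustment over all genes tested. The study names a Holm adjustment and uses lanes as samples. The replicates are pools of nodes of 2 mice, with 2 libraries in each group. All 8 libraries were fitted together. The p-values thus rest on the spread that the group and pool terms leave over all 4 groups, with information shared between genes. The pool numbers come from the labels, where the SSMs and MSMs of 1 node pool share a number, with 1 exception. The label of 1 SSM library from tdLN holds no number, and it was taken as pool 1 because the other is labeled 2. The numbers alone do not show that ndLN and tdLN pools of the same number came from the same mice. The study's own sample matrix numbers 4 pools over the lanes. Deviations of same-numbered libraries from their group means correlated by -0.0449 in ndLN and 0.148 in tdLN between subsets, and by 0.0168 in SSMs and -0.00694 in MSMs between node types.

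Pool differences in levels were taken on log2(CPM + 1). Likeness was Pearson's r of log2(CPM + 1) among genes with a mean normalized count over 100 per lane, the receptors left out, and the 3 highest genes are named for each receptor. The receptors are named in every comparison and genes of the other lists where they passed both cut-offs, apart from results that are not reported here. Motif letters were searched within 250 bases before the RefSeq start. Alternatives were the model without pool, DESeq2 1.42.0 size factors and its Wald test, the legacy edgeR fit, other filters and cut-offs, each lane alone, only the groups compared, Holm adjustment, and each library left out. The receptors and lists were chosen with earlier results of these data known. Python 3.11 with numpy 2.4.6, pandas 2.3.3 and matplotlib 3.10.9 was used.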

Additional observations from a re-analysis of the deposited data

Results flagged for a closer look

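The effect of the node on Cxcr5 differed between the subsets at an adjusted p under 0.05 in edgeR's interaction test. The log2 fold change between tdLN and ndLN was -2.32 in SSMs and 0.29 in MSMs, a difference of -2.61 (standard error 0.331, adjusted p = 0.0209). The level was lower in tdLN in both SSM pools, by -2.09 and -2.19 on the log2(CPM + 1) scale, and higher in both MSM pools, by 0.40 and 0.13. The difference missed the threshold of 0.01 used for calls, which 0.0379% of genes passed, and over the libraries left out in turn it ran from -2.78 to -2.50 with adjusted p-values between 0.048 and 0.207. With the DESeq2 Wald test it passed both cut-offs. The part that reads of Bcl9l, which shares exons with Cxcr5, take in this value was not tested.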

How the results depend on the processing

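Among the receptor values under the alternatives, 815 kept their side of the threshold, 59 lost a call and 17 gained one. The sign differed in 9, for Cxcr3, Ccr1 and Ackr3, 0 of them values that had been called. Cxcr6 in both node types and Ccr2 in tdLN were higher in SSMs under 20 of 20 alternatives, and Ccr8 kept its call between tdLN and ndLN in SSMs under 7 of 20. Without the replicate block, that is without pool in the model, 9 in place of 5 genes passed in MSMs between the nodes, and no receptor gained or lost a call. With DESeq2 size factors, 4 in place of 8 genes passed for the interaction. By the DESeq2 Wald test, 2990 genes passed for SSMs against MSMs in tdLN, 1932 between nodes in SSMs, 496 in MSMs with 2 receptors (Ccr8 and Cxcr6), and 677 for the interaction with 3 receptors (Ccr2, Cxcr3 and Cxcr5). In MSMs between the nodes, the legacy fit gave 23 genes, edgeR's own expression filter 14, lane 3 alone 24 and lane 4 alone 17, each lane with 1 receptor, Cxcr6. For the interaction lane 3 gave 25 genes and lane 4 gave 29. With only the groups compared in the fit, which leaves fewer samples to estimate the spread, 944 genes passed between subsets in ndLN, 0 genes and 0 receptors between nodes in SSMs and 0 genes in MSMs. Holm adjustment left 207 genes and 1 receptor in ndLN, 108 and 2 in tdLN, 7 and 0 in SSMs, 0 genes in MSMs and 1 gene for the interaction. At an adjusted p under 0.05 there were 3883 genes in ndLN, 3020 in tdLN, 1832 in SSMs, 93 in MSMs with 2 receptors, and 215 for the interaction with 1 receptor. With each library left out in turn, 1082 to 2021 genes and 5 to 7 receptors passed in ndLN, 507 to 1867 and 4 to 7 in tdLN, 2 to 345 and 0 to 2 in SSMs, 0 to 3 and 0 in MSMs, and 0 and 0 for the interaction. A lone library of a group was there assumed to vary like the other groups. The cause of the other changes was not tested. Depth limits Ackr3, which had 0 to 31 counts in 6 of the 8 libraries.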
